A study of Homo sapiens with 4 samples.

Results

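The promoters of the ZBTB, ZSCAN and ZKSCAN genes, 3 named families of zinc finger transcription factors, were followed in HEK293T cells with and without MORC2. A promoter was included when the RefSeq symbol of its gene was ZBTB, ZSCAN or ZKSCAN followed by a number and at most 1 letter, so that antisense transcripts and genes with ZNF names were left out. Of the 28775 promoters in the table, 69 met this rule, 41 of them ZBTB, 21 ZSCAN and 7 ZKSCAN, and all 69 passed the filter on low counts that left 27647 promoters in all. The rule used gene names only and no measured value.

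Open chromatin was profiled by ATAC-seq, an assay that reads where the transposase Tn5 can insert adapters into DNA. The 4 libraries are labelled HEK293T, a human embryonic kidney cell line. The study's account of how the knockout was made names HEK293 cells instead. The 2 wild-type (WT) libraries were unedited, and the 2 MORC2 knockout (KO) libraries came from bulk pools edited with Cas9 protein and a guide RNA, guide 1 in KO replicate 1 and guide 2 in KO replicate 2. The guides have overlapping target sites, the pools are not clones, and the effect of a guide and that of a KO replicate cannot be told apart. The question was whether loss of MORC2, a nuclear ATPase and partner of the HUSH silencing complex, changes the accessibility of promoters.

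The genes share a DNA-binding array of zinc fingers and differ in what stands before it. ZBTB proteins carry a BTB domain, through which they pair and recruit co-repressors such as NCOR and BCOR. ZSCAN proteins carry a SCAN domain, which pairs proteins but is not known as a repressor by itself, and most ZKSCAN proteins add a KRAB domain, which recruits the co-repressor TRIM28. Many SCAN genes lie in clusters on chromosomes 6, 7 and 19, whereas ZBTB genes are scattered over the genome.

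The promoter table held from 9435801 to 15152636 fragments per library, of which mitochondrial rows took 20.6% in KO replicate 2 and 31.8% to 35.1% in the other libraries. The ZBTB, ZSCAN and ZKSCAN promoters held a near constant share of the nuclear fragments, between 0.425% and 0.432% in every library, with 15 to 2584 fragments per promoter. At the promoter of MORC2 itself the 4 libraries held 403 and 639 fragments in KO and 247 and 267 in WT (log2 fold change 0.43, SE 0.087, adjusted p = 0.000279, edgeR quasi-likelihood test). Promoter counts check neither the loss of the protein nor the identity of the cell line. In bulk cells, a change in the share of cells with an open promoter and a change in accessibility per cell cannot be told apart. The study describes the WT replicates and the KO lines as independent, and the labels do not say how the WT replicates were separated.

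Among the 69 promoters, 2 were called at an adjusted p under 0.05, those of ZBTB11 and ZBTB26, and both were higher in KO. None was lower, and no ZSCAN or ZKSCAN promoter was called. Over all tested promoters 4.45% were called, 3.45% higher and 0.995% lower, against 2.90% of the 69. At an unadjusted p under 0.05 there were 14 of the 69, 11 higher and 3 lower, which was 20.3%, and 20.3% of all promoters met the same threshold. The share that differed between KO and WT was thus close to the background of the whole table. These shares come from a fit on counts per promoter. The paper tested small windows, summarised them to promoters and reports far fewer differentially accessible genes in KO.

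The upstream sequences of the promoters with the 3 smallest adjusted p are shown first. That of the promoter with the most negative log2 fold change is added. All were picked by these values, and ZSCAN21 and ZKSCAN7 among them were not called. Whether sequence bears on the KO against WT difference was not tested. Each is the run of 250 bases before the RefSeq start on GRCh38.p14, read on the strand of the gene. Capitals mark matches on either strand to textbook motifs, namely the ETS core CCGGAAG, the SP1 box GGGCGG, the NFY box CCAAT, the cAMP response element TGACGTCA and the palindrome CTCGCGAG bound by ZBTB33. ZBTB11 lies on the minus strand at chr3:101677133-101677382, ZBTB26 on the minus strand at chr9:122931513-122931762, ZSCAN21 on the plus strand at chr7:100049524-100049773 and ZKSCAN7 on the plus strand at chr3:44554943-44555192.
ZBTB11: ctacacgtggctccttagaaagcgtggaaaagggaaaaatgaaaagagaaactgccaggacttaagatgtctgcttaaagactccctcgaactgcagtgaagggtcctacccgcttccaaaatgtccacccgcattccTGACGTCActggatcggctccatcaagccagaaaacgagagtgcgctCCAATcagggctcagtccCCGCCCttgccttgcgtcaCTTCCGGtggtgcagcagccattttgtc
ZBTB26: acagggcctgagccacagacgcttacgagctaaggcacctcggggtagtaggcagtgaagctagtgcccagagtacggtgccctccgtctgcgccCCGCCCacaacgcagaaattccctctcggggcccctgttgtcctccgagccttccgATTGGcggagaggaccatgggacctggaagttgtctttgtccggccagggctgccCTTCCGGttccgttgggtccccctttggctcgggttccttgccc
ZSCAN21: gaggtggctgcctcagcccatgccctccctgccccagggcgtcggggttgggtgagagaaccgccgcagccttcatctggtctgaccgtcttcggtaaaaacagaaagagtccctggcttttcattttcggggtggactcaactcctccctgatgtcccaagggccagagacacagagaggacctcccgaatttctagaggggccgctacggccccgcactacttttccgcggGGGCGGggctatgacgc
ZKSCAN7: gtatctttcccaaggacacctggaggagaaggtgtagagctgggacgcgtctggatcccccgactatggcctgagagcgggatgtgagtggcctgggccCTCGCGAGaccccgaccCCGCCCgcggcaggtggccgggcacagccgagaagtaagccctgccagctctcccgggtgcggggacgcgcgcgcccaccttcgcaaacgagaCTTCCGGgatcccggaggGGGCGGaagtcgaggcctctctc
ETS and SP1 matches stood together upstream of ZBTB11, ZBTB26 and ZKSCAN7, and the 250 bases of ZSCAN21 held a single SP1 match, with an ETS match in the 50 bases after its start that are not shown. ZKSCAN7 also held the ZBTB33 palindrome. In the 300 bases around the start, ETS matches were in 35.6% and SP1 matches in 67.8% of the 59 promoters with a sequence. ZBTB4 and ZBTB24, which were not called, also held both, so the pair is not particular to the promoters shown. These matches describe letters and not bound sites.

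ZBTB11 (NCBI Gene ID 27107), a factor with a role in the expression of genes for mitochondrial proteins, held 1319 and 2235 fragments in KO and 1126 and 932 in WT. Scaled by the trimmed mean of M-values (TMM) to counts per 1000000 fragments (CPM), these were 121 and 131 in KO and 117 and 103 in WT, so the groups did not overlap but KO replicate 1 and WT replicate 1 lay side by side. The mean was 126 ± 7.13 CPM in KO and 110 ± 9.69 in WT (SD, n = 2 each), and the estimated log2 fold change was 0.20 (SE 0.062, 95% interval 0.078 to 0.32, adjusted p = 0.0361, edgeR). The antisense gene ZBTB11-AS1, whose row held nearly the same counts (1303, 2178, 1114 and 904), gave a log2 fold change of 0.20 as well (adjusted p = 0.0368, edgeR). ATAC-seq fragments carry no strand, and whether the rows count the same fragments was not tested.

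ZBTB26 (NCBI Gene ID 57684) held 723 and 1128 fragments in KO and 546 and 519 in WT. In CPM the KO libraries were at 66.3 and 66.1 and the WT libraries at 56.7 and 57.5, a tight grouping in which every KO value lay above every WT value. The log2 fold change was 0.21 (SE 0.068, 95% interval 0.080 to 0.35, adjusted p = 0.0438, edgeR). The adjacent RABGAP1 promoter, within 25% of ZBTB26 in each library, gave a log2 fold change of -0.033 (adjusted p = 0.824, edgeR), so that similar counts did not bring a similar difference.

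The calls changed when single libraries were left out, and so did those over all promoters. Without KO replicate 2, the deepest library and the one with the lowest mitochondrial share, and without WT replicate 2, no promoter of the families was called at an adjusted p under 0.05 (edgeR, 6 at an unadjusted p under 0.05 in each case), while 0.148% and 0.827% of all promoters were called and 10.9% and 14% were at an unadjusted p under 0.05. Without KO replicate 1 ZBTB11 alone was called, against 3.1% of all. Without WT replicate 1 there were 5 calls, against 5.89% of all, ZBTB11, ZBTB41 and ZBTB20 higher and ZBTB7A and ZKSCAN7 lower. The log2 fold change of ZBTB11 ran from 0.11 without WT replicate 2 to 0.29 without WT replicate 1. ZBTB26 was not called in any of these fits, with adjusted p between 0.103 and 0.312 (edgeR), and its log2 fold change lay between 0.20 and 0.23. DESeq2 called none of the 69 and 0.0253% of all promoters, with 3 of the 69 and 5.16% of all at an unadjusted p under 0.05. Limma-trend called none of the 69 and 2.59% of all, with 13 of the 69 and 19% of all at such a p.

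**Figure D1:**
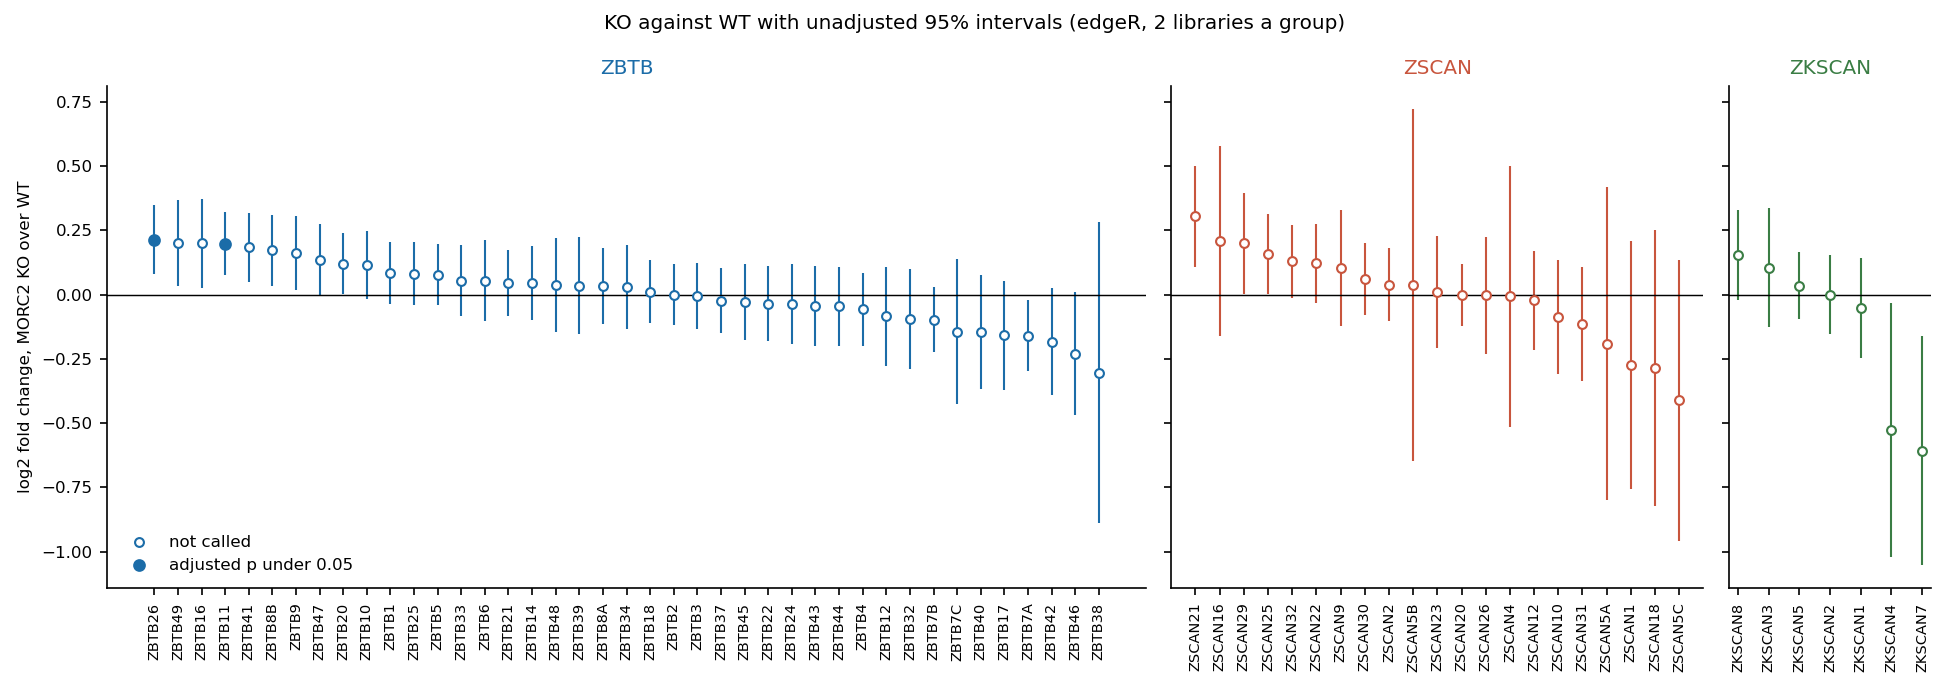
Log2 fold change of MORC2 KO over WT (vertical axis) for each promoter, ordered within its family, with unadjusted 95% intervals from edgeR on 2 libraries a group. The filled points, ZBTB11 and ZBTB26, are those with an adjusted p under 0.05. The order is by log2 fold change, and the intervals are widest at the low-count promoters wherever they stand. The SE runs from 0.061 for the most to 0.35 for the least precise promoter.

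ZSCAN21, the largest positive difference of the 69, came next to the threshold. Its promoter held 293 and 435 fragments in KO and 204 and 190 in WT, or 26.9 and 25.5 CPM against 21.2 and 21.04. Its log2 fold change was 0.30 (SE 0.10, 95% interval 0.11 to 0.50, adjusted p = 0.0515, edgeR), and the gap between the groups was larger than the gap within either. With DESeq2 size factors or without the filter the adjusted p was 0.0469 and 0.0486 (edgeR). With the newer edgeR 4 fit, in which ZBTB11 and ZBTB26 were not called, it was 0.0491. In these fits 4.63%, 4.38% and 3.01% of all promoters were called. The adjacent ZKSCAN1 promoter, with similar counts (248, 399, 217 and 230), gave -0.052 (adjusted p = 0.806, edgeR).

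The other ZSCAN promoters with the smallest p were those of ZSCAN29 and ZSCAN25. ZSCAN29 was at 26.9 and 24.0 CPM in KO and 23.2 and 20.7 in WT, and the log2 fold change was 0.20 (adjusted p = 0.235, edgeR). ZSCAN25 was at 42.5 and 39.2 CPM in KO and 37.2 and 35.6 in WT, and the log2 fold change was 0.16 (adjusted p = 0.241, edgeR). In both, every KO value lay above every WT value, but the step from the highest WT to the lowest KO value was smaller than the gap between the KO replicates. ZSCAN29 shared like counts with MAPDA and TUBGCP4 on either side of it.

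The ZKSCAN family held the largest negative values. ZKSCAN7 had 45 and 49 fragments in KO and 39 and 57 in WT, which is 4.13 and 2.87 CPM against 4.05 and 6.31. The groups overlapped, since KO replicate 1 lay just above WT replicate 1. The log2 fold change was -0.61 (SE 0.23, 95% interval -1.05 to -0.16, adjusted p = 0.0965, edgeR), and it ranged from -0.90 without WT replicate 1, where it was called, to -0.26 without WT replicate 2. ZKSCAN4 was at 2.57 and 2.87 CPM in KO and 3.63 and 4.32 in WT, and the log2 fold change was -0.53 (SE 0.25, adjusted p = 0.211, edgeR). Its KO values lay below its WT values, as did those of the adjacent NKAPL promoter (-0.58, adjusted p = 0.179, edgeR), whose counts were alike. ZKSCAN8, at 31.5 and 32.3 CPM in KO and 29.1 and 28.4 in WT, gave 0.15 (adjusted p = 0.312, edgeR).

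The log2 fold change also varied with the level of a promoter over the whole table. Across all promoters the median log2 fold change rose from -0.27 in the lowest of 10 abundance classes to 0.082 in the highest. Under 5 CPM, 8 of the 9 promoters of the families and 81.8% of all promoters were below 0, with medians of -0.29 and -0.26. Above 50 CPM, 16 of 22 and 77.8% were above 0, with medians of 0.069 and 0.079. Between these levels 19 of 38 were above 0 against 54.1% of all. When offsets that follow this trend were used, ZKSCAN7 stood at -0.40, ZKSCAN4 at -0.30, ZSCAN21 at 0.27, ZBTB26 at 0.14 and ZBTB11 at 0.11. With these offsets no promoter of the families was called, against 1.42% of all promoters. At an unadjusted p under 0.05 were 5 of 69, against 13.1% of all (edgeR).

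**Figure D2:**
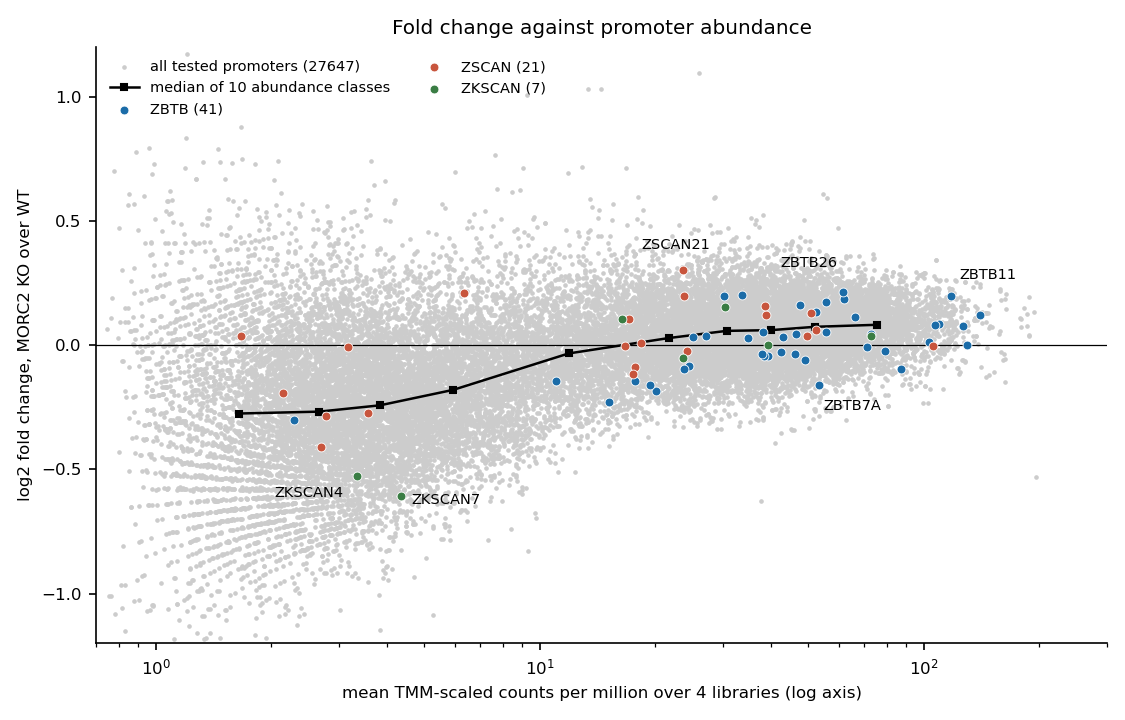
Log2 fold change of MORC2 KO over WT (vertical axis) against the mean TMM-scaled CPM of the 4 libraries (horizontal log axis) for all 27647 tested promoters in grey and the 3 families in colour, with the median of each of 10 abundance classes as squares. The median line climbs from -0.27 to 0.082 and the coloured points scatter about it, with ZSCAN21 above and ZKSCAN7 below, while 75 promoters of other genes lie outside the axes.

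The middle of each family lay close to 0. The median log2 fold change was 0.011 over the 69 promoters, 0.029 for ZBTB, 0.0100 for ZSCAN and -0.00023 for ZKSCAN, against -0.017 over all tested promoters. The median absolute log2 difference of the 69 was 0.086 between the KO and WT means, 0.091 between the KO replicates and 0.082 between the WT replicates. The first value compares means of 2 libraries and the others compare single libraries. Means vary less than single libraries, so the values do not show that KO and WT differ no more than replicates do. The 95% interval lay within 0.5 of 0 for 58 of the 69, 40 of 41 ZBTB, 13 of 21 ZSCAN and 5 of 7 ZKSCAN promoters.

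The KO libraries both lay above both WT libraries at 20 of the 69 promoters (29.0%, against 25.2% of all promoters) and below them at 12 (17.4%, against 25.4%). By family they lay above at 13 ZBTB, 6 ZSCAN and 1 ZKSCAN promoters, and below at 10, 1 and 1. The ZSCAN promoter with both KO values below was ZSCAN18, at 2.50 ± 0.032 CPM in KO and 3.04 ± 0.54 in WT (SD, n = 2 each).

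**Figure D3:**
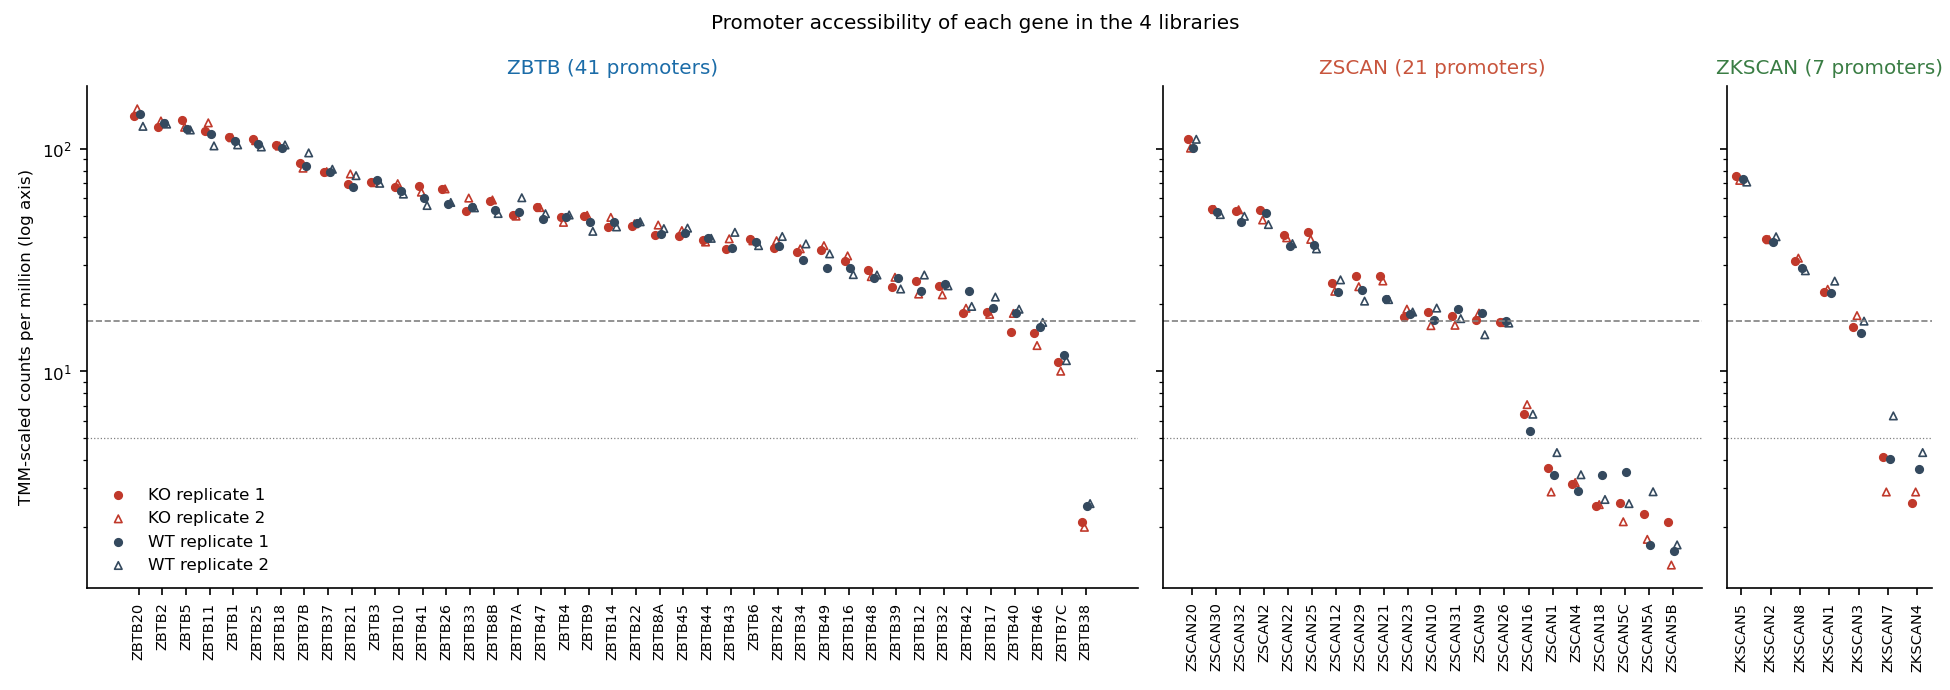
TMM-scaled CPM (vertical log axis) of every promoter in each of the 4 libraries, ordered by mean level within its family, with KO in red, WT in dark grey, circles for replicate 1 and triangles for replicate 2. The dashed line is the median of all tested promoters (16.8 CPM) and the dotted line 5 CPM, below which lie 1 ZBTB, 6 ZSCAN and 2 ZKSCAN promoters.

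The families also differed in the level of their promoters. The study describes each promoter as a window of the same length, 2 kb, around a start site. On this ground CPM was set side by side between genes. Which start each row used is not given. CPM was not corrected for copy number or for how well reads map at each place, and differences in level between genes can include both. The median level was 46.4 CPM for ZBTB, 17.7 for ZSCAN and 23.5 for ZKSCAN promoters, and 16.8 over all tested promoters. Above 50 CPM were 18 of 41 ZBTB (43.9%), 3 of 21 ZSCAN (14.3%) and 1 of 7 ZKSCAN promoters (14.3%), against 16.4% of all. Under 5 CPM were 1, 6 and 2, which is 2.44%, 28.6% and 28.6%, against 31.4% of all. These are descriptions of 1 cell line, since promoters are no replicates of a family.

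The most accessible promoters belonged to ZBTB20, ZBTB2 and ZBTB5. ZBTB20, known as a repressor of alpha-fetoprotein in liver, was at 141 and 152 CPM in KO and 143 and 126 in WT, a log2 fold change of 0.12 (adjusted p = 0.237, edgeR). ZBTB2 was at 125 and 134 in KO and 130 and 129 in WT, and the log2 fold change was -0.00022 (adjusted p = 0.999, edgeR). At both, the groups overlapped. The top ZSCAN promoters were those of ZSCAN20, with a mean of 106 CPM in either group, and ZSCAN30, at 53.6 ± 0.23 CPM in KO and 51.4 ± 0.92 in WT. ZKSCAN5 (74.0 ± 2.55 against 72.0 ± 1.42 CPM) and ZKSCAN2 (39.3 ± 0.30 against 39.3 ± 1.41 CPM, SD, n = 2 each) led the ZKSCAN promoters.

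ZBTB1 and ZBTB25 held nearly the same counts, 1234 against 1208 and 1916 against 1858 in KO and 1042 against 1014 and 942 against 922 in WT. They differed by 2.11% to 3.03%, and their log2 fold changes were 0.084 and 0.082, and -0.0043 and -0.0068 with offsets that follow the trend with level. Of the 69 promoters, 29 (16 ZBTB, 9 ZSCAN and 4 ZKSCAN) had an adjacent row in gene order within 25% of their count in every library, and for 6 of these the adjacent row was itself 1 of the 69. Among the 40 without such a row, none was called at an adjusted p under 0.05 (edgeR, 7 at an unadjusted p under 0.05). Over all tested promoters these shares were 4.45% and 20.3%, so that few calls would be found among 40 promoters in any case. Similar counts alone do not show that fragments are shared.

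ZBTB proteins that bind methylated CpG were spread widely in level. ZBTB33, also called Kaiso, was at 52.4 and 60.2 CPM in KO and 55.0 and 54.4 in WT, and the log2 fold change was 0.055 (adjusted p = 0.692, edgeR). ZBTB4 was at 48.2 ± 1.93 and 49.9 ± 0.83 CPM (SD, n = 2 each). ZBTB38, the lowest ZBTB promoter, had 23 and 34 fragments in KO and 24 and 23 in WT, or 2.11 and 1.99 CPM against 2.49 and 2.55. The KO values of ZBTB38 lay below its WT values, but its interval ran from -0.89 to 0.28 (adjusted p = 0.590, edgeR), and a difference of this size was not detectable at this depth.

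Among ZBTB repressors and developmental factors, ZBTB7A, a repressor of fetal globin, was at 50.7 and 49.9 CPM in KO and 52.1 and 60.4 in WT, and the log2 fold change was -0.16 (adjusted p = 0.173, edgeR). The WT replicates differed from each other by more than WT replicate 1 differed from the KO libraries. ZBTB16, or PLZF, was at 31.4 and 33.1 CPM in KO and 29.1 and 27.2 in WT, a log2 fold change of 0.20 (adjusted p = 0.179, edgeR). ZBTB41 was at 68.5 and 64.0 CPM in KO and 60.2 and 55.7 in WT (0.18, adjusted p = 0.0935, edgeR), and the rows of ASPM and CRB1 on either side held like counts and gave 0.19 each. The KO values lay above the WT values in both ZBTB16 and ZBTB41.

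None of the remaining ZBTB promoters named for a textbook role or a low level passed the test. ZBTB17, or MIZ-1, a partner of MYC, was at 18.3 ± 0.33 CPM in KO and 20.4 ± 1.69 in WT, and its log2 fold change was -0.16. ZBTB18, a neuronal repressor, was at 103 ± 0.56 and 103 ± 2.25. ZBTB24, mutated in an immunodeficiency with centromere instability, was at 37.2 ± 2.07 and 38.5 ± 2.74. The KO values of ZBTB17 lay below its WT values, and the other groups overlapped. ZBTB48, which binds telomere repeats, was at 27.6 ± 1.24 and 26.7 ± 0.61 CPM, and ZBTB32, a lymphocyte factor, was at 23.1 ± 1.42 and 24.5 ± 0.33. ZBTB7C, the lowest ZBTB promoter but 1, was at 10.5 ± 0.69 and 11.5 ± 0.46 CPM (SD, n = 2 each). Both KO values of ZBTB32 (-0.094) and ZBTB7C (-0.14) lay below both WT values, while those of ZBTB48 overlapped. Their adjusted p ran from 0.408 for ZBTB17 to 0.942 for ZBTB18 (edgeR).

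Of the SCAN genes with known roles, ZSCAN4, active in the early embryo and at telomeres, had 34 and 54 fragments in KO and 28 and 31 in WT, which is 3.12 and 3.17 CPM against 2.91 and 3.43. Its log2 fold change was -0.0072 with an interval from -0.51 to 0.50 (adjusted p = 0.992, edgeR). ZSCAN10, a factor of embryonic stem cells, was at 17.3 ± 1.67 CPM in KO and 18.2 ± 1.58 in WT. Neither pair of groups separated. ZKSCAN3, a repressor of autophagy genes, was at 16.8 ± 1.39 and 15.8 ± 1.40 CPM, and ZKSCAN1, whose transcript also yields a circular RNA, was at 23.1 ± 0.46 and 24.0 ± 2.08 (SD, n = 2 each).

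The low ZSCAN promoters were those of genes on chromosome 19. Of the 7 SCAN genes listed for the end of chromosome 19, ZSCAN1, ZSCAN4, ZSCAN5A, ZSCAN5B, ZSCAN5C and ZSCAN18 were under 5 CPM, between 1.67 and 3.57, and ZSCAN22 alone was at 38.8. None of the 14 ZSCAN promoters outside that list was under 5 CPM, and their median was 23.7 CPM. ZSCAN5B, the lowest of the 69, had 23 fragments in each KO library and 15 in each WT library. ZSCAN5A had 25 and 30 in KO and 16 and 26 in WT. ZSCAN5A, ZSCAN5B and ZSCAN5C are close paralogs, so that their counts, made from reads that map well to 1 place, are uncertain. The median log2 fold change of the 7 was -0.19, against -0.26 for all promoters under 5 CPM, of which 81.8% were below 0. None of the 7 was called and none was at an unadjusted p under 0.05 (edgeR), against 4.45% and 20.3% of all promoters.

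The promoters of the clusters on chromosomes 6 and 7 had higher levels in CPM. The 9 SCAN genes listed on chromosome 6 (ZSCAN9, ZSCAN12, ZSCAN16, ZSCAN23, ZSCAN26, ZSCAN31, ZKSCAN3, ZKSCAN4 and ZKSCAN8) had a median of 17.1 CPM, from 3.35 for ZKSCAN4 to 30.3 for ZKSCAN8, and a median log2 fold change of 0.0100. The 4 on chromosome 7 (ZKSCAN1, ZKSCAN5, ZSCAN21 and ZSCAN25) had a median of 31.1 CPM and a median log2 fold change of 0.096. No promoter of either list was called, and 1 of 9 (11.1%) and 2 of 4 (50.0%) were at an unadjusted p under 0.05 (edgeR), against 4.45% called and 20.3% at that p over all promoters.

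CpG content was set beside these levels for the 59 promoters with an entry in the RefSeq promoter table, each 300 bases from 250 before to 50 after the start. The entries of 10 genes were missing, namely ZBTB6, ZBTB10, ZBTB16, ZBTB17, ZBTB40, ZBTB41, ZSCAN5C, ZSCAN16, ZSCAN26 and ZKSCAN2. The median GC content was 64.0% and the median ratio of observed to expected CpG was 0.833, against 58.3% and 0.580 for all 27303 promoters in that table. CpG-dense, with a GC content of at least 50% and a ratio of at least 0.6, were 43 of the 59 (72.9%) and 58.6% of 19082 tested promoters with a sequence. In all, 5.91% of the CpG-dense promoters were under 5 CPM, against 51.7% of the others.

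The low promoters of the families fell on either side of this division. Of the 43 CpG-dense ones, 5 (11.6%) were under 5 CPM, those of ZSCAN1, ZSCAN5A, ZSCAN18, ZKSCAN4 and ZKSCAN7, and all of these were SCAN genes. Of the 16 others 3 (18.8%) were under 5 CPM, those of ZBTB38, ZSCAN4 and ZSCAN5B. The rank correlation of CpG ratio with level was -0.08 over the 59 promoters and 0.61 over the 19082, as a description of 1 cell line in which every point comes from the same 4 libraries. The sets differ in make-up, with 72.9% and 58.6% CpG-dense. A correlation over a matched range of CpG was not made, so the values do not show that the families depart from other promoters. ZBTB20, the most accessible promoter, had a ratio of 0.210 at the start that RefSeq lists. The start behind its count, as behind those of the other promoters, is not given.

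The contrast can be read from 4 low promoters, shown as the 250 bases before the RefSeq start on GRCh38.p14 with every CG in capitals. ZSCAN18 lies on the minus strand at chr19:58118405-58118654 and ZSCAN1 on the plus strand at chr19:58033775-58034024, ZBTB38 on the plus strand at chr3:141323936-141324185 and ZSCAN4 on the plus strand at chr19:57668685-57668934.
ZSCAN18: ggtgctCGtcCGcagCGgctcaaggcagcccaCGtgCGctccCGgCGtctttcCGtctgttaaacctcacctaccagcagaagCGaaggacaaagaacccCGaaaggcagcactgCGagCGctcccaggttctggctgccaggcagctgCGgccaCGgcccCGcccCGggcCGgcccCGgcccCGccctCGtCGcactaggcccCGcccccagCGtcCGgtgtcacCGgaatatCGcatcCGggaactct
ZSCAN1: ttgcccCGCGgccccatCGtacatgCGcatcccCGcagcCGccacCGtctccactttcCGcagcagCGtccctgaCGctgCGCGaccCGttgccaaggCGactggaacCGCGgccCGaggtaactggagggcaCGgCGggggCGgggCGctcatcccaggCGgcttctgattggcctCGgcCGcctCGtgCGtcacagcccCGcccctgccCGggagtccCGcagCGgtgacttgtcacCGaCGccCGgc
ZBTB38: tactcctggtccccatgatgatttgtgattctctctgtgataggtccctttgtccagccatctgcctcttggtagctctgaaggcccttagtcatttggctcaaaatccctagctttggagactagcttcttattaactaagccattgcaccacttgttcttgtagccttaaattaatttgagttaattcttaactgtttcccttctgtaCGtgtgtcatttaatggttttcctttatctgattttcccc
ZSCAN4: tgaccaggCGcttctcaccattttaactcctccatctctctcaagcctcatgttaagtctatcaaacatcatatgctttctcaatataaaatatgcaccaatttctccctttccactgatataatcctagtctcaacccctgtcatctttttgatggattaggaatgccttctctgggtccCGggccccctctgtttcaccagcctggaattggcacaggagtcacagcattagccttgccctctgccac
The stretches of ZSCAN18 and ZSCAN1 held 27 and 33 CG pairs, and those of ZBTB38 and ZSCAN4 held 1 and 2. The mean levels of these promoters were 2.77, 3.57, 2.29 and 3.16 CPM in the same order. DNA methylation was not measured here.

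**Figure D4:**
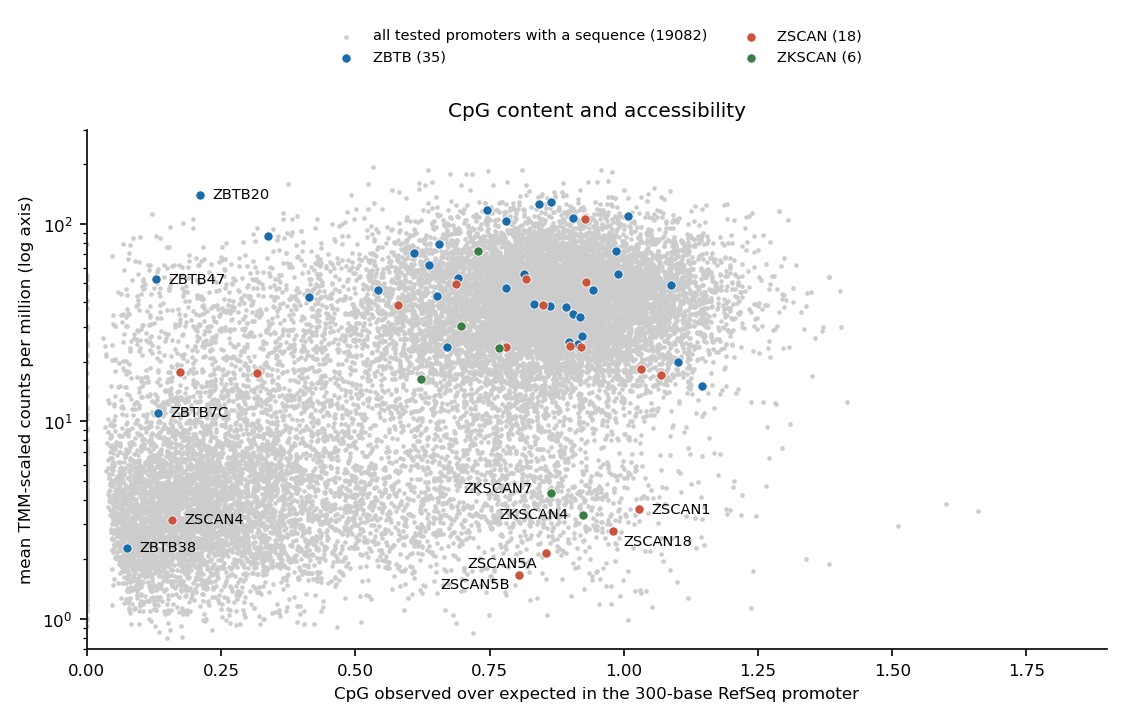
Mean TMM-scaled CPM over the 4 libraries (vertical log axis) against the ratio of observed to expected CpG in the 300-base RefSeq promoter (horizontal axis), for 19082 tested promoters in grey and 59 of the families in colour. The grey points form a low, CpG-poor and a high, CpG-dense cloud, and ZSCAN1, ZSCAN5A, ZSCAN18, ZKSCAN4 and ZKSCAN7 lie at high CpG and under 5 CPM, as does ZSCAN5B, whose GC content is 44.7%.

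Motif matches in the same 300 bases, on either strand, were compared with the promoter table as a whole. The 59 were richer in GC and CpG than that table (medians 64.0% and 0.833 against 58.3% and 0.580). Shares at a matched CpG content were not compared. The ETS core CCGGAAG was in 21 of 59 (35.6%) against 10.7% of all promoters, and by family in 9 of 35 ZBTB, 8 of 18 ZSCAN and 4 of 6 ZKSCAN promoters. The SP1 box GGGCGG was in 40 (67.8%) against 44.6%. The letters TATAAA were in 1 (1.69%), that of ZSCAN4, against 12%. The cAMP response element TGACGTCA was in 3 (5.08%), those of ZBTB11, ZBTB21 and ZBTB48, against 1.98%.

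The ZBTB33 palindrome CTCGCGAG was in 2 (3.39%), those of ZKSCAN5 and ZKSCAN7, against 1.06% of all. One of these, ZKSCAN5, had the highest and the other, ZKSCAN7, the second lowest mean level of the ZKSCAN promoters. CCAAT was in 24 (40.7%) against 35.7%, GCGCATGC, bound by NRF1, in 2 (3.39%) against 3.27%, and AAGATGGCG, bound by YY1, in none against 1.85%. Matches to different motifs overlapped in 1 promoter.

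Related genes with other kinds of symbols were read in the same fit, in which 4.45% of all promoters were called and 20.3% were at an unadjusted p under 0.05 (edgeR). Of 21 SCAN genes with other names, among them ZNF24, ZNF174 and MZF1, none was called, 2 were at an unadjusted p under 0.05 (edgeR) and the median log2 fold change was 0.064. The smallest p was that of ZNF397 (0.17, adjusted p = 0.0791, edgeR). Of 8 BTB zinc finger genes with other names 7 were tested, all but HIC2, and none was called, with 3 at an unadjusted p under 0.05 (edgeR). These were BCL6, the germinal centre repressor, at 0.25 (adjusted p = 0.097, edgeR), MYNN at 0.15 and PATZ1 at -0.19, and the median of the 7 was 0.080. Of 11 genes for co-repressors and partners of BTB proteins, such as NCOR1, BCOR, HDAC3 and CUL3, none was called, 2 were at an unadjusted p under 0.05 (edgeR), those of HDAC2 (0.19) and GPS2 (0.19), and the median was 0.029.

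**Figure D5:**
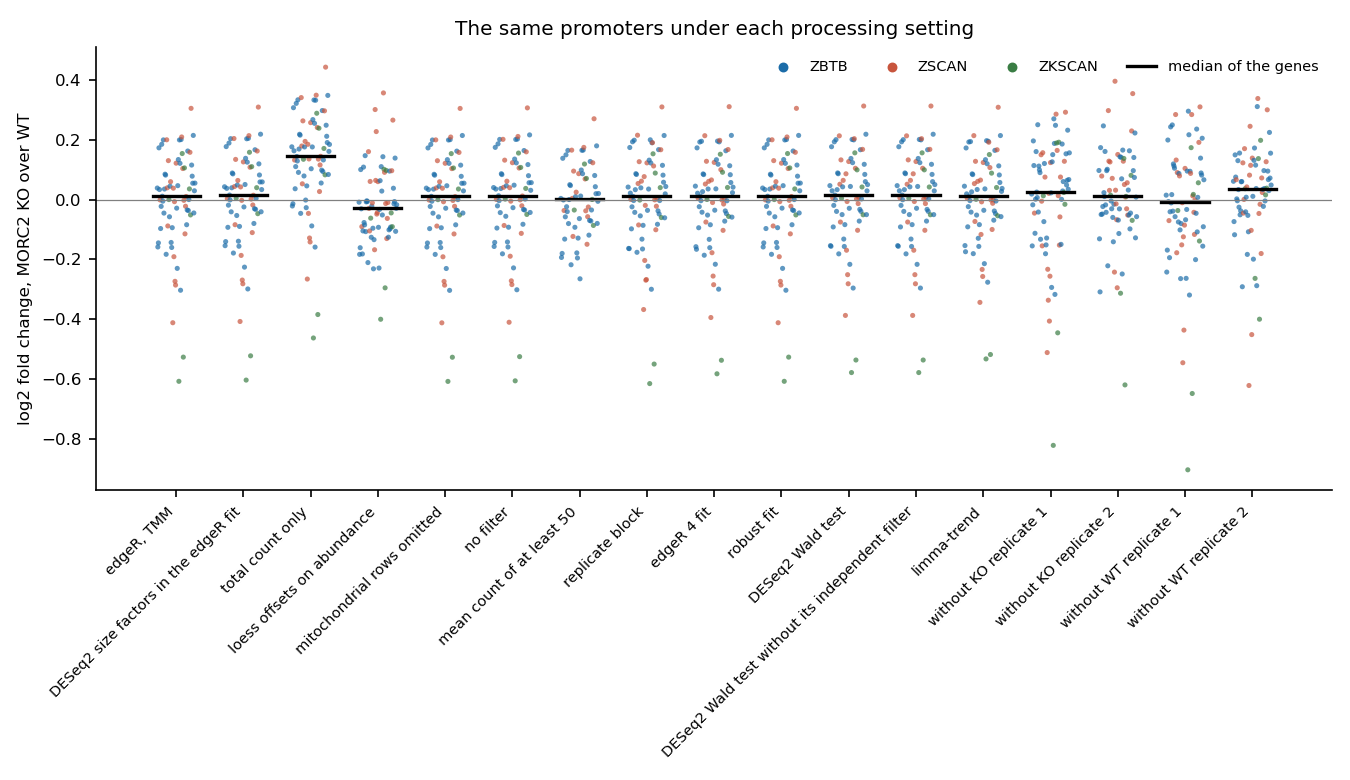
Log2 fold change of MORC2 KO over WT (vertical axis) of each promoter of the families under each way of scaling, filtering and testing the counts and without each library (horizontal axis), coloured by family, with the median as a black bar. The bar stays between -0.030 and 0.037 except for scaling by total count, where it is 0.144 and the median of all promoters is 0.120.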

How the data were processed

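The authors trimmed paired-end reads, aligned them with Bowtie2 to the telomere-to-telomere human assembly CHM13, dropped poorly mapped pairs, removed duplicates with Picard and deposited raw fragment counts per promoter, not normalised, with 1 row for each NCBI Gene ID. The study's methods count fragments by midpoint in small windows, and whether the promoter table was counted in this way is not stated there. The peak list of the pooled WT libraries was not used. Symbols and gene order came from RefSeq (GRCh38.p14), which named 28763 of 28775 rows. Because the builds differ, CpG content and motifs at the GRCh38.p14 starts were joined to counts by gene and not by position.

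Counts were filtered with filterByExpr, scaled by TMM and tested with edgeR 4.0.16 (quasi-likelihood F-test, legacy fit, R 4.3.3), KO against WT, over all 27647 promoters with Benjamini-Hochberg adjustment. The scripts were tested on simulated data. All p-values are two-sided. SEs were derived from the F statistics. A permutation test of 2 against 2 libraries cannot give a two-sided p below 0.333, so single values were not tested. Alternatives were other scalings, filters and fits, DESeq2 1.42.0, limma 3.58.1, other thresholds, a replicate block and leaving out each library.

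The families, gene lists and tests were chosen with earlier results of these data known. Promoters were named if called, if among the 3 smallest p, the 2 highest or the 2 lowest levels of their family, or if the gene has a textbook role. Other promoters named, and the CpG thresholds, were chosen after their values were seen.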

Additional observations from a re-analysis of the deposited data

How the results depend on the processing

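The number of ZBTB, ZSCAN and ZKSCAN promoters called, 2 in the analysis as reported, was 3 with DESeq2 size factors or without the filter, 2 without mitochondrial rows or with the robust fit, 1 with the edgeR 4 fit, and 0 with total count scaling, loess offsets, a mean count of at least 50, the DESeq2 test with or without its independent filter, limma-trend, an adjusted p under 0.01, or only the 40 promoters unlike their neighbours. It was 5 at an adjusted p under 0.1, and lay between 0 and 5 with 3 libraries. Over all promoters 1229 were called, 20 with total count scaling, 393 with loess offsets, 787 at a mean count of at least 50, 7 with DESeq2 (either way), 717 with limma-trend, 2249 and 355 at the looser and stricter threshold, and from 41 (without KO replicate 2) to 1637 (without WT replicate 1) with 3 libraries. With DESeq2 size factors 1279 of all promoters were called (4.63%), and 1243 without the filter (4.38%). Without mitochondrial rows there were 1241 (4.5%), with the robust fit 1260 (4.56%) and with the edgeR 4 fit 833 (3.01%). The cause of these changes was not tested.

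Replicate numbers did not pair the libraries: the correlation of deviations of same-numbered libraries was 0.00023 over 27610 promoters. With a replicate block, 0 of the 69 and 765 of all promoters (2.77%) were called. At an unadjusted p under 0.05 were 12 of the 69 and 19% of all promoters (edgeR). The log2 fold change of ZSCAN20 was 0.00015 in this fit.

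Total count scaling moved the median of all promoters from -0.017 to 0.120, and the median of the 69 to 0.144, which is 0.0241 above all promoters against 0.0276 as reported. The family medians were 0.161 (ZBTB), 0.144 (ZSCAN) and 0.134 (ZKSCAN). With loess offsets the medians were -0.030 for the 69, -0.033 for ZBTB and -0.062 for ZKSCAN, and at a mean count of at least 50 that of ZBTB was -0.0038. Leaving out a library gave medians from -0.0068 to 0.037 for the 69, -0.016 to 0.048 for ZBTB, -0.0018 to 0.066 for ZSCAN and -0.037 to 0.036 for ZKSCAN.

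Of the 69 promoters, 20 changed sign with total count scaling and 18 with loess offsets, and 5 of the 60 left at a mean count of at least 50. Among the promoters named by rule, those that did so with total count scaling were ZBTB2 (0.13), ZSCAN20 (0.13), ZKSCAN2 (0.13), ZBTB4 (0.079), ZBTB24 (0.094), ZBTB32 (0.045), ZSCAN4 (0.14), ZSCAN10 (0.052) and ZKSCAN1 (0.082). With loess offsets the named ones were ZSCAN30 (-0.011), ZSCAN5A (0.064), ZKSCAN5 (-0.045), ZBTB33 (-0.017), ZBTB18 (-0.077), ZBTB48 (-0.0089) and ZSCAN4 (0.23). At a mean count of at least 50 the named one was ZBTB18 (-0.024). With DESeq2 size factors, without the filter and with the DESeq2 test ZBTB2 was at 0.0037, 0.0014 and 0.0018, ZSCAN20 at 0.0026, 0.00020 and 0.0055, and ZKSCAN2 at 0.0040, 0.0014 and 0.0038. With the edgeR 4 fit and limma-trend ZSCAN20 was at 0.0044 and 0.0046, and ZKSCAN2 at 7.2e-05 and 0.00051. With 3 libraries ZBTB2 ranged from -0.045 to 0.060, ZSCAN20 from -0.070 to 0.078, ZSCAN5B from -0.23 to 0.39, ZSCAN5A from -0.55 to 0.24, ZKSCAN2 from -0.037 to 0.036, ZBTB33 from -0.057 to 0.16, ZBTB18 from -0.011 to 0.033, ZBTB24 from -0.11 to 0.037, ZSCAN4 from -0.12 to 0.11, ZSCAN10 from -0.18 to 0.030 and ZKSCAN1 from -0.14 to 0.038. Over all settings 30 of the 69 promoters kept 1 sign, 18 of them above 0. Depth limits the promoters under 5 CPM, whose SE reached 0.35.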
